A study of Mus musculus with 3 samples.

Results

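Gene expression was measured on 1 array each of 3 cultures of mouse pluripotent cells derived from EB3, an established mouse embryonic stem cell (mESC) line, and the genes described here are those for which the Activin+PD culture stood apart from both others. They were chosen by their measured values: the log2 intensity on the Activin+PD array had to differ by at least 1, which is 2-fold, from the 2i array and from the array of epiblast stem cells (mEpiSCs), in the same direction, with an intensity above 50 on the brightest array. Of 22180 genes on the array, 14036 reached that intensity. In all 121 genes passed, 99 of them higher in Activin+PD than in both other cultures (0.705% of the genes compared) and 22 lower (0.157%). By the same rule the 2i array stood apart for 139 genes (72 higher, 0.513%, and 67 lower, 0.477%) and the mEpiSC array for 944 (423 higher, 3.01%, and 521 lower, 3.71%). Set against 2i alone, Activin+PD was 2-fold or more higher for 193 genes (1.38%) and lower for 115 (0.819%). Against mEpiSCs alone, 772 (5.5%) were higher and 516 (3.68%) lower. The 2 differences share the Activin+PD array. These counts were not tested against each other.

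The Activin+PD culture was mESCs kept for 64 days in N2B27 medium with 20 ng/ml Activin A and 2 µM PD0325901. The 2i culture was mESCs kept for 34 days in N2B27 with 2 µM PD0325901 and 2 µM CHIR99021. The mEpiSCs had been induced from EB3 mESCs, and their N2B27 held bFGF at 12 ng/ml beside 20 ng/ml Activin A; how long they were cultured is not stated. Activin A was therefore shared with the mEpiSCs, and the MEK inhibitor with the 2i culture. No culture with Activin A or PD0325901 as the sole addition was analysed here, so the pair of factors, the time in culture and the state of the cells cannot be told apart. Each group was 1 array of 1 line, so no difference was tested, and "higher" and "lower" describe these 3 arrays.

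Activin A is a TGF-beta family ligand whose receptors phosphorylate SMAD2 and SMAD3, which enter the nucleus and switch on targets that include the pathway's own antagonists. PD0325901 inhibits MEK, the kinase that activates ERK, and ERK signalling moves naive stem cells towards differentiation. CHIR99021 inhibits GSK3, which lets beta-catenin accumulate and relieves repression by TCF factors. mEpiSCs stand for the epiblast after implantation, the primed state.

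The median intensity was 50.9 for Activin+PD, 51.2 for 2i and 51.9 for mEpiSCs. Background was set from receptor genes of smell, olfactory and vomeronasal, which these cells should lack: the 95th percentile of their 1405 probe sets was an intensity of 45.4, 48.1 and 47.5. Where a gene was at or below background on the dimmer array, its fold is given as "at least", the brighter array over the background of the dimmer one. How far probe sets of the same gene disagreed, the 1 measure of error these arrays allow, had a standard deviation of 0.24 (log2) in the difference against 2i and 0.28 in that against mEpiSCs (498 genes). It does not cover the variation between cultures, and only probe sets above background on all 3 arrays entered it. Of the genes described here, 61 of the 99 higher and 20 of the 22 lower were above background on all 3. Both mESC arrays showed the factors of pluripotent cells: Pou5f1 had 273 in Activin+PD against 302 in 2i, Nanog at 5149 and 4312, and Zfp42, a naive marker, at 2802 and 2321. In mEpiSCs, Pou5f1 was at 336, Nanog at 1082 and Zfp42 at 61.4.

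**Figure D1:**
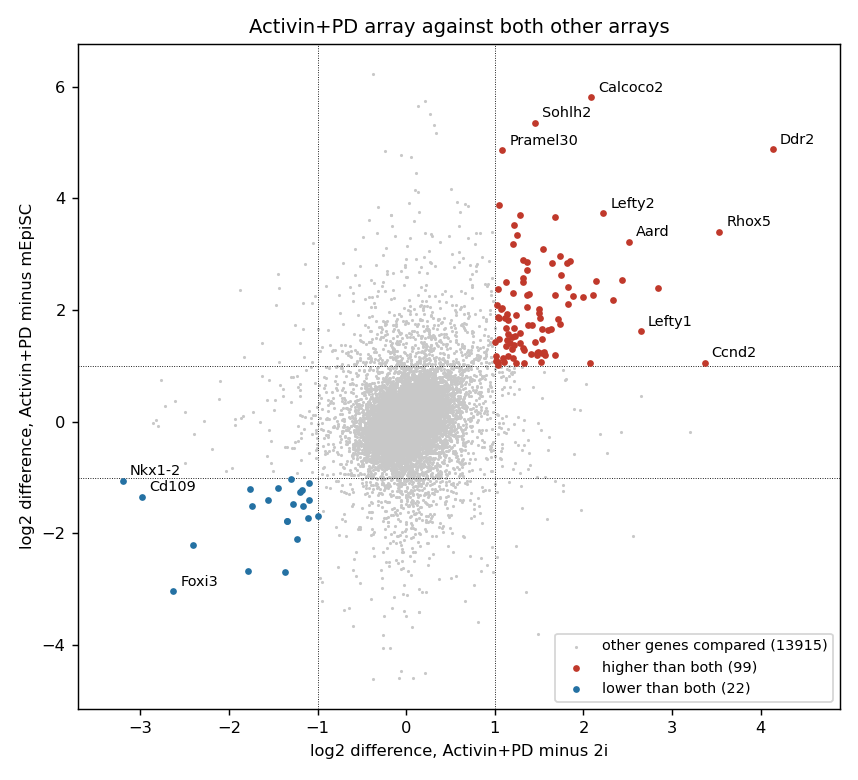
Each point is 1 gene with an intensity above 50 on at least 1 array. The horizontal axis is the log2 difference Activin+PD minus 2i, the vertical axis Activin+PD minus mEpiSC, and the dotted lines mark a difference of 1 in size. The 99 higher genes (red) fill the upper right corner with Ddr2 farthest out, and the 22 lower genes (blue) the lower left.

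Among the 99 higher genes, the 2i and mEpiSC arrays were within 2-fold of each other for 72. For 24 the 2i array was at least 2-fold above the mEpiSC array, so the level stepped down from Activin+PD through 2i to mEpiSCs. For 3, Lefty1, Ccnd2 and Erbb3, the mEpiSC array was at least 2-fold above the 2i array. The difference nearer to 0 was the one against 2i for 76 genes and the one against mEpiSCs for 23. It was at least 2 in size for 10 genes, from 1.5 up to 2 for 19 and under 1.5 for 70, with a median of 1.25 and a highest value of 4.13. The intensities of these genes had a median of 277 in Activin+PD (lowest 77.3, highest 1875), 100.4 in 2i and 65.3 in mEpiSCs. All 99 were above background in Activin+PD, 83 in 2i and 62 in mEpiSCs. For 15 genes neither other array was above background.

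Secreted factors of the Nodal pathway were among the higher genes. By the difference nearer to 0, Lefty2 ranked 6 and Lefty1 ranked 25 of the 99. Lefty1 and Lefty2 encode antagonists that block Nodal at its receptors and are direct targets of SMAD2/3. Lefty1 had an intensity of 1656 in Activin+PD, 265 in 2i and 536 in mEpiSCs, a log2 difference of 2.64 and 1.63. Lefty2 was at 1724, 369.9 and 129, a log2 difference of 2.22 and 3.74. The genes thus differed in which other culture came second, mEpiSCs for Lefty1 and 2i for Lefty2. They are adjacent on chromosome 1 in the RefSeq gene order, with no other array gene between them. Of 22 Activin/Nodal targets compared, these 2 were higher than on both other arrays (9.09%, beside 0.705% of all genes). None was lower, beside 0.157% of all genes. Above both other arrays by any amount were 8 of the 22 (36.4%, against 27.2% of all genes compared).

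Other targets passed in 1 of the differences or in neither. Smad7, an inhibitory SMAD, had 493 in Activin+PD, 238 in 2i and 267 in mEpiSCs, 1.05 and 0.89 on the log2 scale, so it fell short against mEpiSCs. Nodal itself was at 555, 411 and 381, both differences under 1. Tdgf1, the Nodal co-receptor, and Pmepa1, a feedback inhibitor of SMAD signalling, were highest in mEpiSCs, at 2507 and 325 against 1136 and 227 in Activin+PD. Among 23 compared ligands, receptors and other components of the pathway, 0 were higher and 0 lower than on both other arrays. Over all genes the shares were 0.705% and 0.157%, at which a list of this size would mostly hold none.

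Further secreted proteins and matrix modifiers belonged to the higher genes. Hhip, which binds and sequesters hedgehog ligands, was at 213 in Activin+PD, 60.5 in 2i and 29.8 in mEpiSCs, at least 4.48-fold above the last. Ccn2, a matricellular growth factor, was at 402, 142 and 98.5, but a second probe set stayed at background throughout. Fgf23, the hormone of phosphate balance, was at 117, 40.5 and 36.8 and above background in Activin+PD alone. It lies close to Ccnd2 on chromosome 6, with 1 array gene, Tigar, between them. P4ha3, a collagen prolyl hydroxylase subunit, was at 220.0, 55.3 and 46.8, while P4ha1 and P4ha2 were within 2-fold on the 3 arrays. Pcolce2, which enhances the cleavage of procollagen, was at 457, 163 and 192. Npnt, an integrin ligand of basement membranes, was at 194, 77.0 and 79.1. The BMP antagonist gene Chrdl1 was dim, at 97.6, 43.4 and 36.9, and Wfdc2 was at 177, 66.3 and 76.0.

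Receptors at the cell surface included the gene farthest from both other cultures. Ddr2, a receptor tyrosine kinase that is activated by fibrillar collagen, was at 859 in Activin+PD, 48.9 in 2i and 29.1 in mEpiSCs. That is 17.6-fold above 2i, where it was just above background, and at least 18.1-fold above mEpiSCs. Its paralog Ddr1 had a different order, at 145, 102 and 462, with mEpiSCs highest. Kit, the receptor of stem cell factor, was at 1109.7, 331 and 178, whereas the gene of its ligand, Kitl, was at 81.9, 112 and 45.9. Erbb3, a neuregulin receptor, was at 609.7, 144 and 295, and Erbb2, its signalling partner, was level at 124, 115 and 134. F2r, the thrombin receptor, was at 1254, 459 and 465, so both other cultures had nearly the same level. Tek, the angiopoietin receptor, was at 142 and close to background elsewhere, at 49.0 and 51.2. Of 26 collagens, collagen receptors and laminins compared, 2 (7.69%, beside 0.705% of all genes) were higher than on both other arrays. They were Ddr2 and the fibronectin receptor subunit gene Itga5 at 571, 178 and 249. Ddr2 reached the intensity minimum in Activin+PD alone and so had to be highest there. Of the other 25, 1 passed. Col1a1 and Col3a1, which encode fibrillar collagens, were at 88.7 and 56.6 in Activin+PD and within 2-fold on the 3 arrays.

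Other surface genes stood closer to the threshold. Cdh3, P-cadherin, was at 565, 204 and 247, and Cdh1, E-cadherin, was at 1545, 1696 and 2232. Notch4 was at 216, 105 and 103, and Notch1, Notch2 and Notch3 were within 2-fold on the 3 arrays. The adhesion gene Mcam was at 297, 145 and 147. Npr3, a clearance receptor for natriuretic peptides, was at 245, 100.4 and 81.2, and the guidance receptor gene Plxnc1 at 112, 39.1 and 53.2. Lrig3, Cdhr1, Dcbld1, Mdga1 and Cd3e ranged from 185 for Cd3e to 690.0 for Lrig3 in Activin+PD, with a smaller difference between 1.04 and 1.23.

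**Figure D2:**
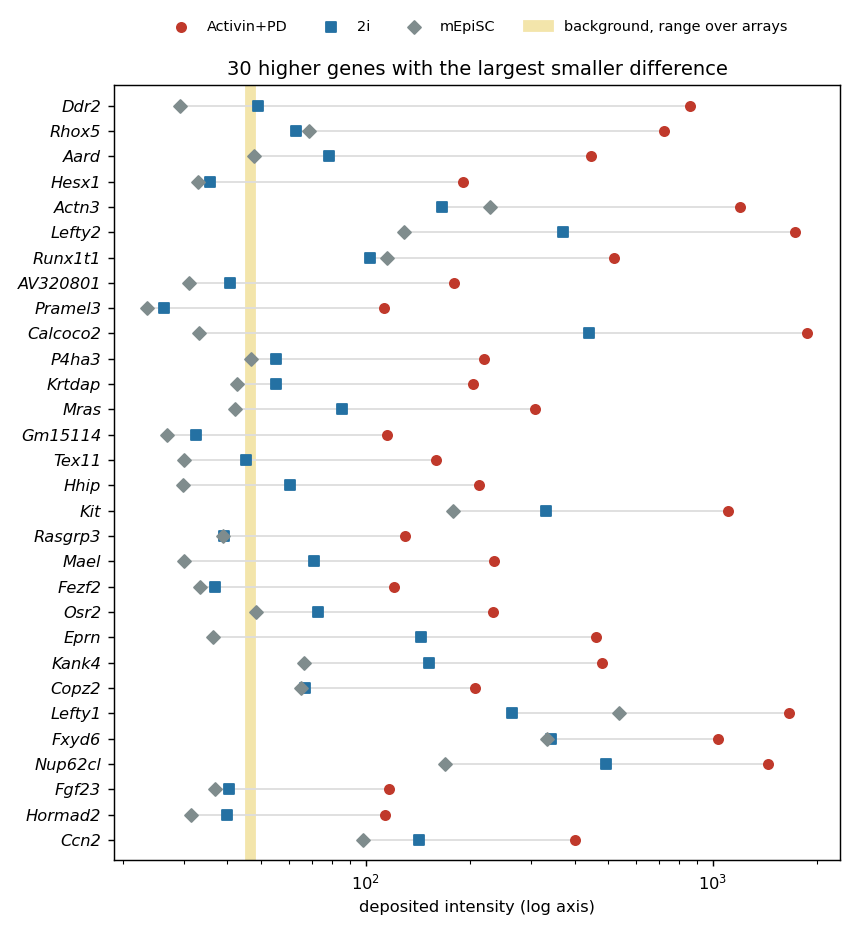
Intensity, on a log axis, of the 30 higher genes with the largest difference nearer to 0, on the Activin+PD (circle), 2i (square) and mEpiSC (diamond) arrays, 1 array each. The band is background, 45.4 to 48.1. Ddr2 and Rhox5 show the widest gaps to both other arrays, and many of the mEpiSC points lie at or below the band.

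Genes that act inside the cell on Ras signalling, the cell cycle and the cytoskeleton followed. Ccnd2, the D-type cyclin that drives entry into S phase with CDK4 and CDK6, was at 876 in Activin+PD, 84.99 in 2i and 422 in mEpiSCs. Its difference was 3.37 against 2i and 1.06 against mEpiSCs, near the threshold. Ccnd1 ran the other way, at 445, 927 and 827, and Ccnd3 was at 707, 468 and 409.6. Of 12 D cyclins and cell-cycle inhibitors compared, Ccnd2 was the 1 that passed (8.33%, beside 0.705% of all genes). Mras, a Ras-family GTPase, was at 307, 85.3 and 41.9, and Rasgrp3, an exchange factor that activates Ras proteins, at 130.3, 39.1 and 38.9. Of 27 FGF/ERK targets compared, 0 were higher and 0 lower than on both other arrays, beside 0.705% and 0.157% of all genes. At those shares a list of this size would mostly hold none. The list's median was 0.18 against 2i and -0.98 against mEpiSCs.

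Stat4, a transcription factor of cytokine signalling, was at 724 in Activin+PD, 315 in 2i and 79.9 in mEpiSCs, a step down in 2 stages. The other STAT genes measured did not pass, Stat3 being at 271, 326 and 321. Pim1, a kinase that cytokines induce, was at 919, 422 and 359, and its second probe set gave 0.93 and 0.77 on the log2 scale. Actn3, the alpha-actinin of fast muscle fibres, was at 1196, 166 and 228, 7.19-fold and 5.24-fold above the others. Actn1 and Actn4, the alpha-actinins of non-muscle cells, were within 2-fold, with Actn1 at 1538, 1368 and 1408. Further cytoskeletal genes were Kank4 at 479, 153 and 66.6, Coro2b at 436, 189 and 87.7, and Coro6 at 145, 72.1 and 64.4. Tubb3 and Tubb2a, tubulins best known from neurons, were at 641, 257 and 113, and at 367, 166 and 123. Tubb5, the most abundant beta-tubulin of dividing cells, was at 6748, 6709 and 7671. Of 11 neural markers compared, Tubb3 was the 1 that passed (9.09%, beside 0.705% of all genes). Map6 and Dpysl4, other neuronal cytoskeleton genes, were at 142 and 139 in Activin+PD, the second probe set of Map6 being below background throughout. Rhpn2, Dock5, Stk10, Slc9a3r2 and Cltb also passed, with 977, 538, 251, 421 and 291 in Activin+PD and smaller differences from 1.05 to 1.37.

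Transcription factors among the higher genes were mostly developmental regulators at low levels. Hesx1, a homeobox repressor of forebrain and pituitary development that is also found in the early epiblast, was at 191 in Activin+PD and below background elsewhere, at 35.5 and 32.9. That is at least 3.98-fold and 4.03-fold. Runx1t1, a transcriptional co-repressor, was at 521, 103 and 115. Its paralogs Cbfa2t2 and Cbfa2t3 were within 2-fold on the 3 arrays. Nkx2-9 was at 484, 163 and 209.9, Osr2 at 233, 72.7 and 48.4, Fezf2 at 121, 36.8 and 33.4, and Pax8 at 113, 46.5 and 42.6. Fezf2 and Pax8 were above background in Activin+PD alone. Epas1, which encodes the hypoxia factor HIF-2 alpha, was at 257, 126 and 60.0, and Hif1a at 759, 616 and 913. Gata3 was at 209, 71.0 and 87.8, but its second probe set gave 0.18 and 0.22. Of 20 ectoderm and placode factors compared, Hesx1 and Gata3 were higher than on both other arrays and Foxi3 lower. Of all genes compared, 0.705% were higher and 0.157% lower. Of the 20, 2 reached the intensity minimum in Activin+PD alone, Hesx1 among them, and so had to be highest there. Of the other 18, 1 was higher, Gata3.

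Germline genes formed the largest listed group. These genes have a role in meiosis or germ cell development and are kept silent in somatic cells by DNA methylation of their promoters. Of 38 listed genes 34 were on the array and 24 were compared, and 7 of these (29.2%) were higher than on both other arrays, beside 0.705% of all genes compared. None was lower. Of the 24, 6 reached the intensity minimum on the Activin+PD array alone, Tex11 and Taf7l among them, and so had to be highest there. Of the other 18, 5 passed the rule and 13 were above both other arrays by any amount, beside 27.2% of all genes compared. That trait was not particular to germline genes. It was shared by 17 of 22 naive pluripotency genes (77.3%), and by 4 of the 5 2-cell-like markers above the minimum on another array. The germline list's median was 0.46 against 2i and 1.40 against mEpiSCs, and that of all genes -0.010 and -0.041. These medians hold the same 6 genes and support nothing further. With dim values set to the background level, the median against mEpiSCs was 0.87. The list was drawn up with earlier results of these arrays known, so its direction is no independent evidence.

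Rhox5, an X-linked homeobox gene of the testis and other reproductive tissue, was at 726 in Activin+PD, 62.8 in 2i and 68.5 in mEpiSCs, 11.6-fold and 10.6-fold. The neighbouring genes of its cluster did not follow: Rhox9 was at 124, 94.0 and 82.5 and Rhox6 at 60.6, 72.6 and 54.2, and of 10 Rhox genes on the array Rhox5 was the 1 past the rule. The others of the 7 stepped down from Activin+PD through 2i to a level below background in mEpiSCs, except for Tex11 and Taf7l, which were below background in both. Sohlh2, a basic helix-loop-helix factor of early germ cells, was at 1286, 471 and 31.3, at least 27.1-fold above mEpiSCs. Dazl, an RNA-binding protein of germ cells, was at 518, 213 and 39.5, at least 10.9-fold above mEpiSCs. Mael, a piRNA pathway protein, was at 235, 70.8 and 30.1. Stra8, which retinoic acid induces at the start of meiosis, was at 192, 88.3 and 33.9. Tex11, an X-linked meiosis gene, was at 160.1, 45.3 and 29.9. Taf7l, a TFIID subunit paralog, was the dimmest of all 99 at 77.3, 35.4 and 24.2, and with background in place of the lower values its fold was at least 1.61. Of the members of the list that missed, Ddx4 was at 257, 142 and 33.3, Taf9b at 250.2, 130.1 and 94.6, and Rpl10l at 243, 536 and 34.3 with 2i highest.

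The promoters of 4 of these genes are shown. Rhox5 was near one level in 2i and mEpiSCs, and Mael, Dazl and Sohlh2 stepped down. Their number of CpGs, the sites of DNA methylation, differed, but methylation was not measured and a link to the levels was not tested. Of the others with a window, Stra8, which stepped down, held 10 CpGs, and Taf7l, below background in 2i and mEpiSCs, 17. The promoters shown are windows of 300 bases of the GRCm38.p6 build from RefSeq, 250 before and 50 after the annotated start. They run in the direction of transcription, with each CpG in capitals.
Rhox5: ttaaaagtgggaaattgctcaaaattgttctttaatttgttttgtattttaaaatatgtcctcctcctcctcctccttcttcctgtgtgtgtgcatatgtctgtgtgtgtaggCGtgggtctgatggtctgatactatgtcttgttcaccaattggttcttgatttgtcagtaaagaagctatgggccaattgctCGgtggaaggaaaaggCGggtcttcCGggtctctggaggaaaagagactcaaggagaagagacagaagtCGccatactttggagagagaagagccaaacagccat
Mael: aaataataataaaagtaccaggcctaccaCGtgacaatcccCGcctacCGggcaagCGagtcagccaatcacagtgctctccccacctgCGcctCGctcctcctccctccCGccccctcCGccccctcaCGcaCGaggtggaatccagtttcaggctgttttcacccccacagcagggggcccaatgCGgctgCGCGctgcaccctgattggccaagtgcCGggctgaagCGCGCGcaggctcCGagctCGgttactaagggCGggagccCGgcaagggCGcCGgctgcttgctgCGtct
Dazl: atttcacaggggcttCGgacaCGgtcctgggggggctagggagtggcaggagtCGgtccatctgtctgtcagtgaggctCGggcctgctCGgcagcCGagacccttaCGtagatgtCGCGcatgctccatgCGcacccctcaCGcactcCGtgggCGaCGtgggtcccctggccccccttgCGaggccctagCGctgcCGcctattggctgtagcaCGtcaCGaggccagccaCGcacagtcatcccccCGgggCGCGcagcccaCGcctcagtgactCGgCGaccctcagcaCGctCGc
Sohlh2: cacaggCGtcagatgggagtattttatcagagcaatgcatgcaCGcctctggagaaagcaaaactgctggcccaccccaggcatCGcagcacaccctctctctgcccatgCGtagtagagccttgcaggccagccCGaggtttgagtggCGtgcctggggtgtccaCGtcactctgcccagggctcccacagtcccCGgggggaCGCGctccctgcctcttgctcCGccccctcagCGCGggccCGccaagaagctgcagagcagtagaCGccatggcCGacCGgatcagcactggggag
The windows are chrX:37754358-37754657 on the plus strand for Rhox5, chr1:166238695-166238994 on the minus strand for Mael, chr17:50293571-50293870 on the minus strand for Dazl and chr3:55181794-55182093 on the plus strand for Sohlh2. Rhox5 held 5 CpGs and a GC content of 43.7%, Mael 24 and 65.0%, Dazl 28 and 68.7%, and Sohlh2 17 and 64.7%.

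RefSeq held a window for 92 of the 121 genes, 78 higher and 14 lower, and the first listed window was used for the 14 genes with several. The 78 higher genes had a median of 15 CpGs and 59.5% GC, and the 14 lower genes 11 and 57.3%, beside 20 and 60.7% over 10923 compared genes. At most 4 CpGs were found in 13 of the 78 (16.7%) and in 10.1% of compared genes. No member of the germline list was among those 13. The letters CACGTG, an E-box, were in 4 of 78 windows (5.13%), Mael and Taf7l among them, and in 9.997% of compared genes. It was in 2 of 6 windows of the germline genes that passed and in 7 of 14 of those that did not. The SMAD box CAGACA, on either strand, was in 12 of 78 higher windows (15.4%) and in 16.3% of compared genes, and the SMAD palindrome GTCTAGAC and the FOXH1 motif TGTGGATT were in none of the 92, beside 0.247% and 0.531% of compared genes. Lefty1 and Lefty2, the Activin/Nodal targets that passed, are not among the 92, so these counts do not bear on them. These matches are letters in a window, not sites.

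More genes of germ cells and meiosis passed that were on no list and are named with their values known. Hormad2, of the meiotic chromosome axis, was at 114, 39.9 and 31.4, and Smc1b, the meiotic cohesin subunit, at 115, 50.3 and 40.0, whereas Smc1a was level at 882, 956 and 966. Ctcfl, the germ cell paralog of Ctcf, was at 133, 53.4 and 53.3, and Ctcf itself at 1210.4, 1172 and 1199. Ddx43, an RNA helicase, was at 114, 56.8 and 42.4 and nearest to the threshold of all 99. Gpat2, an acyltransferase family gene of the testis, was at 152, 73.8 and 41.1. Of 30 Pramel genes on the array 8 were compared and 3 passed, beside 0.705% of all genes, Pramel3 being compared for its level in Activin+PD alone: Pramel3 at 113, 26.3 and 23.4, Pramel14 at 128, 51.3 and 21.5, and Pramel30 at 645, 304 and 22.1. The family has many near-identical copies, so its probe sets may not tell the members apart.

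The X chromosome carried 12 of the 99 higher genes (12.1%) and 4 of the 22 lower ones, while 3.39% of the compared genes lie on it. Of its 476 compared genes, 2.52% were higher than on both other arrays, beside 0.705% of all genes. Of the 12, only Rhox5, Nup62cl and Gm15091 were above the intensity minimum on another array. The rest were compared for their level in Activin+PD alone and so had to be highest there. Of the genes higher on the 2i array than on both others, 6 of 72 (8.33%) lie on X, and for the mEpiSC array 31 of 423 (7.33%). None of these shares was tested. Neighbours account for part of the 12. Pramel3 and AV320801, the latter at 179, 40.7 and 31.0, were next to each other, and Gm15114, Gm15127, Gm15097 and Gm15091 lay in a row broken by 1 array gene, Luzp4. Gm15114 was at 115, 32.4 and 26.7. Their levels in Activin+PD were between 109 for Gm15097 and 286 for Gm15091, and those in mEpiSCs between 23.3 and 58.3. Other probe sets, outside these counts, list the genes of each run together. The probe sets counted here may therefore not tell the genes of a run apart. The other X-linked genes were Rhox5, Tex11, Taf7l, Chrdl1, Nup62cl at 1444, 494 and 169, and AU015836 at 96.3, 45.3 and 43.8.

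**Figure D3:**
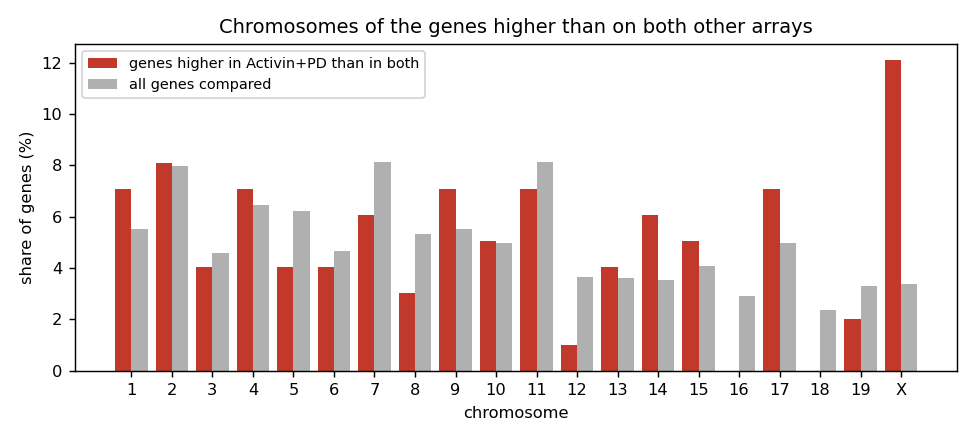
Share, in percent, of the 99 higher genes (red) and of the 14036 compared genes (grey) on each chromosome, with chromosome Y left out. The X bar is 12.1% against 3.39%, and 6 of its 12 genes belong to 2 runs of neighbouring genes. Of the 12, all but Rhox5, Nup62cl and Gm15091 were compared only for their level in Activin+PD and had to be highest there.

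Of 22 naive pluripotency genes compared 1 passed (4.55%, beside 0.705% of all genes). Against 2i alone 1 was at least 2-fold higher and 1 lower, Gbx2 at 77.7 against 163. Calcoco2, an autophagy receptor that is on the naive list, was at 1875 in Activin+PD, 441 in 2i and 33.2 in mEpiSCs, at least 39.5-fold above the last. The list's median was 0.24 against 2i and 2.77 against mEpiSCs. Calcoco2 and Ttll6, a tubulin-modifying enzyme gene at 194, 68.8 and 49.96, are adjacent on chromosome 11. Eprn, a long non-coding RNA, was at 462, 145 and 36.4. Among 23 primed and formative genes compared, Hesx1 was higher than on both other arrays (4.35%, beside 0.705% of all genes). It reached the intensity minimum in Activin+PD alone and so had to be highest there. Of the other 22, 0 were higher. Wnt8a and Nkx1-2 were lower than on both (8.70%, beside 0.157%). Dppa2, a gene of pluripotent cells, was just outside the rule at 3243, 1626 and 1007, with a difference of 0.996 against 2i. Just outside too were B3galnt1 at 78.7, 35.3 and 39.4, with differences of 1.16 and 0.997, and Atcay at 139.6, 66.5 and 70.6, with 1.07 and 0.98, and just inside were Smpdl3b, Coro6 and Ddx43, at 1.01 for the smaller difference.

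Transporters and enzymes made up much of the rest. Slc15a1, a peptide transporter, was at 408, 172 and 40.4, and Slco4c1, an organic anion transporter, at 497, 214 and 43.0, both below background in mEpiSCs. Slc1a1, a glutamate transporter, was at 136, 57.9 and 46.5, Slc43a3 at 203, 96.3 and 49.7, and Fxyd6, a regulator of the sodium pump, at 1038, 342 and 333. Naaa, a lysosomal amidase, was at 920.1, 359 and 126, and Gfpt2, which makes glucosamine 6-phosphate for protein glycosylation, at 1087, 470.3 and 493. Uchl1, a deubiquitinase of neurons and germ cells, was at 885, 399 and 250.1 on the brighter probe set, while its second probe set gave 0.056 and -0.012. Prmt8, an arginine methyltransferase, was at 277, 111 and 37.0, and Mreg, which acts in melanosome transport, at 1509.9, 731 and 102. Sgms2 and Smpdl3b, of sphingolipid metabolism, were at 155, 70.03 and 68.5 and at 223, 110.5 and 104. The remaining higher genes were Aard at 446, 78.3 and 47.6, Krtdap at 204, 55.3 and 42.7, Copz2, Shisal2a, Acsm4, Fndc3b, Fam25c, and the non-coding or unnamed genes Gm13580, Tbx3os2 and Ptprtos, between 105 for Tbx3os2 and 533 for Ptprtos in Activin+PD.

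The 22 lower genes were fewer and closer to the threshold, and 19 of them were within 2-fold between 2i and mEpiSCs. Their intensities had a median of 85.4 in Activin+PD, 269.6 in 2i and 338 in mEpiSCs. All 22 were above background in 2i and mEpiSCs and 20 in Activin+PD, the exceptions being Ctsc and Plcl2. The size of the difference nearer to 0 was at least 2 for Foxi3 and Rtl8c, from 1.5 up to 2 for Wnt8a and Sh3gl3, and under 1.5 for 18.

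Targets and ligands of Wnt signalling were the listed group among them. Wnt8a, a secreted Wnt ligand of the epiblast, was at 67.5 in Activin+PD, 233 in 2i and 429.9 in mEpiSCs. Sp5, a zinc finger factor that beta-catenin induces, was at 63.1, 172 and 143. Nkx1-2, a homeobox gene of the caudal epiblast, was at 80.6, 740.1 and 168, but a dim second probe set gave -0.43 and -0.067. These 3 of the 25 Wnt targets compared (12.0%, beside 0.157% of all genes) were lower than on both other arrays, and 0 were higher. Lower than both by any amount were 19 of 25 (76.0%, against 33.7% of all genes). Of the 25, 4 were compared though Activin+PD was not above the intensity minimum, and of the other 21, 15 were lower than both. The list's median was -0.53 against 2i and -0.50 against mEpiSCs. This list too was drawn up with earlier results of these arrays known, so its direction is no independent evidence. Axin2, the feedback gene of the pathway, was at 177, 691 and 315, which fell short against mEpiSCs at -0.83. Cdx2 and Cdx1 were far lower than in 2i but near mEpiSCs, Cdx2 being at 57.1, 399 and 60.2. Fzd7 was above 2i and below mEpiSCs, at 315, 129 and 595, and Notum was far above mEpiSCs but level with 2i, at 338, 373 and 53.2. Tcf7l1, a repressor of the pathway, was the 1 listed gene above both, at 1442, 1184 and 951. As the 2i culture had the GSK3 inhibitor and the Activin+PD culture did not, only the comparison with mEpiSCs was one between cultures without that inhibitor.

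The Sp5 promoter is shown because it was the 1 window among the 14 of lower genes with the TCF/LEF letters CTTTGAT, in capitals below, on either strand. They were in 7.14% of those windows, in 1 of 78 windows of higher genes, that of Krtdap, and in 2.44% of compared genes. The window is chr2:70474673-70474972 on the plus strand of GRCm38.p6, from RefSeq.
Sp5: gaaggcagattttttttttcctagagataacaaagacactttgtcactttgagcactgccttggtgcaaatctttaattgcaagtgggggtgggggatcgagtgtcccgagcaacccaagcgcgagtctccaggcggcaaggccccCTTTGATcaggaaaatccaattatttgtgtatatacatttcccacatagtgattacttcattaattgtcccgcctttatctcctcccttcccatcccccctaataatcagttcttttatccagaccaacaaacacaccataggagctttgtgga

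Foxi3, with the largest difference nearer to 0, encodes a forkhead factor of ectodermal placodes and skin appendages. It was at 84.6 in Activin+PD, 524 in 2i and 694 in mEpiSCs, 6.20-fold and 8.21-fold lower. Against 2i alone Nkx1-2 (-3.20) and Cd109 (-2.98) were farther down than Foxi3 (-2.63). Foxi1 and Foxi2 were within 2-fold on the 3 arrays, at 89.0, 90.3 and 86.8 and at 70.8, 84.6 and 88.0. Rtl8c, a gene derived from a retrotransposon Gag sequence on X, was near background at 46.5 in Activin+PD and at 248 and 215 elsewhere. Zfp703, a zinc finger factor, was at 45.8, 103 and 107.

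**Figure D4:**
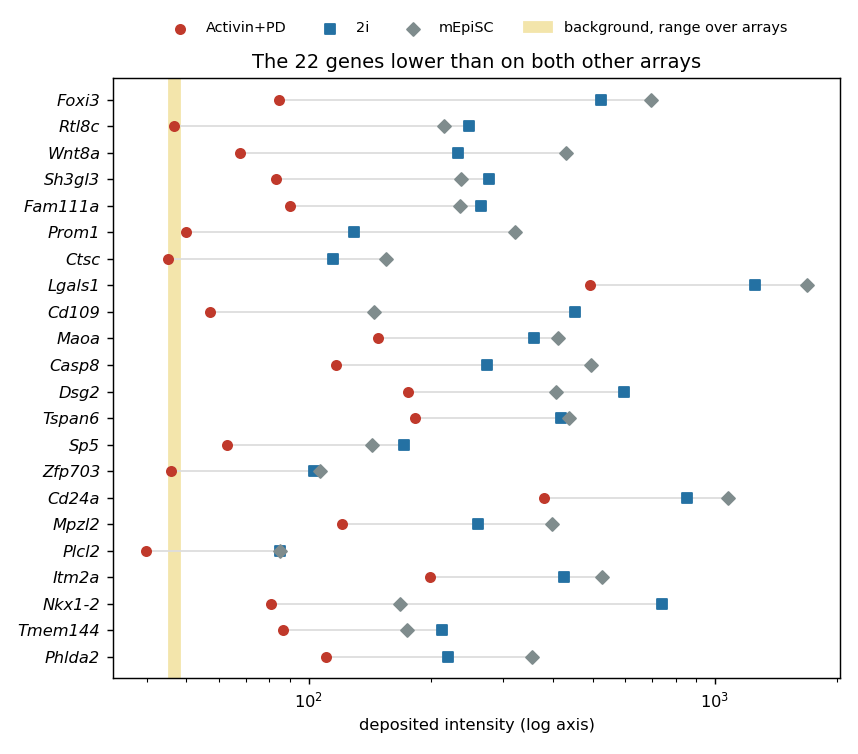
Intensity, on a log axis, of the 22 lower genes on the Activin+PD (circle), 2i (square) and mEpiSC (diamond) arrays, 1 array each, ordered by the difference nearer to 0. The band is background, 45.4 to 48.1. Activin+PD is the lowest point of each gene, and Nkx1-2 and Cd109 have 2i far above mEpiSC.

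Surface and adhesion genes made up another part of the lower set. Cd109, a GPI-anchored inhibitor of TGF-beta signalling, was at 57.2, 452 and 145. Prom1, the stem cell surface protein CD133, was at 49.9, 129 and 322. Cd24a, a small glycosylated surface protein, was at 380.0, 853 and 1079, and its second probe set gave -1.22 and -1.60. Of the 121 genes, higher and lower, only 8 had a second probe set, and that of Cd24a was the 1 that passed the rule itself. Of these 8 probe sets, 6 had both differences in the direction of the gene, and 5 were above background on any array. Dsg2, a desmosomal cadherin, was at 176, 596 and 406 on the brighter probe set and below background on the other. Mpzl2, an epithelial adhesion gene, was at 121, 261 and 396. It is adjacent on chromosome 9 to Cd3e, which was among the higher genes. Tspan6 and Itm2a, membrane proteins encoded on X, were at 183, 419 and 438 and at 199, 424 and 526.

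The other lower genes were enzymes and regulators. Lgals1, galectin-1, was the brightest at 493, 1254 and 1689. Casp8, the initiator caspase of death receptors, was at 116, 274 and 496. Maoa, the monoamine oxidase encoded on X, was at 148, 358 and 411, and Ctsc, a lysosomal protease, at 45.0, 115 and 155. Phlda2, an imprinted gene that restrains placental growth, was at 110.0, 220.1 and 354 and just inside the rule at -1.001. It was the 1 of 21 imprinted genes compared that passed (4.76%, beside 0.157% of all genes), with 0 higher among genes with a probe set of their own. Another gene of that list shares its probe set with a second symbol and was outside these counts; that probe set was higher, at 574, 45.8 and 35.3. Plcl2 was at 39.7 in Activin+PD and at 84.9 on both other arrays, and it is adjacent on chromosome 17 to Dazl, which was higher. Sh3gl3 at 83.2, 277 and 237, Fam111a at 90.04, 265 and 236, and Tmem144 at 86.2, 213 and 175 completed the set. Just outside were BC064078 at 77.6, 152 and 541, Gja1 at 184, 356 and 1713, and Cdk6 at 139.7, 269.6 and 1024, each between -0.95 and -0.97 against 2i and below -2.8 against mEpiSCs.

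**Figure D5:**
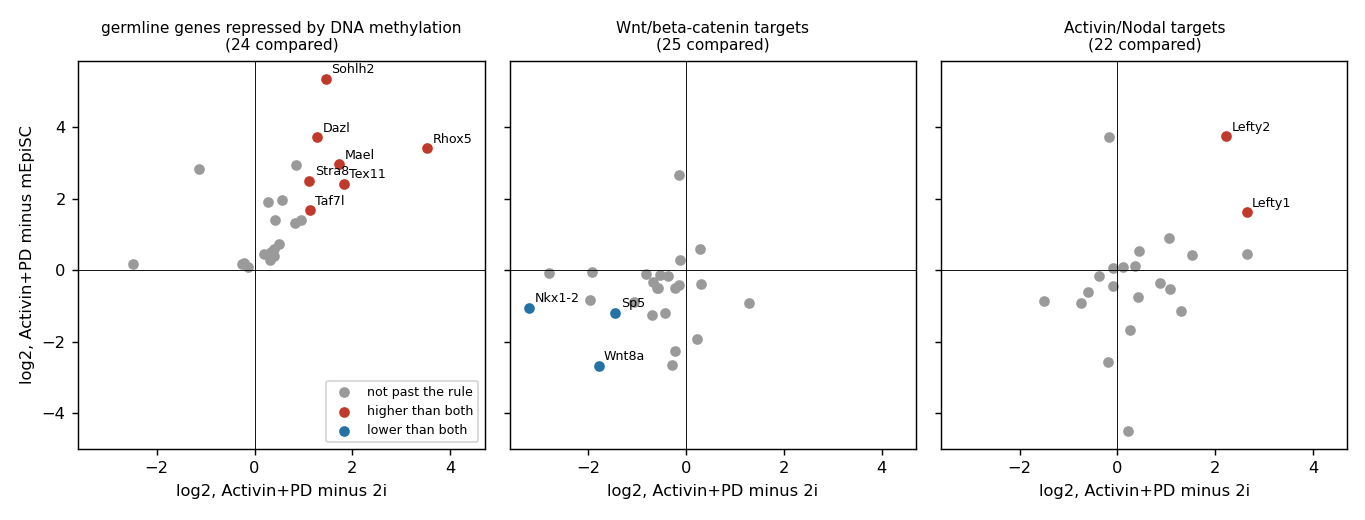
Log2 difference Activin+PD minus 2i (horizontal) and minus mEpiSC (vertical) for the compared genes of 3 lists, 1 point per gene. In the upper right quadrant lie 19 of 24 germline genes (79.2%, against 27.2% of all genes compared). Of the 24, 6 were compared only for their level in Activin+PD and had to lie there. In the lower left lie 19 of 25 Wnt targets, 4 of which were not above the minimum in Activin+PD, and of the Activin/Nodal targets only Lefty1 and Lefty2 passed the rule.

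Markers of other cells did not share one direction. Of 13 primitive endoderm, 11 fibroblast and 6 2-cell-like markers compared, 0 were higher and 0 lower than on both other arrays. Over all genes the shares were 0.705% and 0.157%, so lists this short would mostly hold none. Of 12 trophectoderm markers 1 was higher, Gata3 (8.33%, beside 0.705% of all genes). The summed intensity of the 15 fibroblast markers on the array was 2315 in Activin+PD, 3193 in 2i and 3167 in mEpiSCs. Vim alone was at 1479, 2369.7 and 1939, and without it the sum was 836, 823 and 1228. That of the 16 primitive endoderm markers was 2352, 1794 and 2546, that of the 14 trophectoderm markers 1304, 1546 and 2498, that of the 13 2-cell-like markers 1149, 924 and 431, and that of the 15 neural markers 4682, 2834 and 3510. The 2-cell-like and neural sums were thus highest in Activin+PD, beside the germline genes and Tubb3, and their part in those results was not tested. By median intensity, the neural markers were instead highest in mEpiSCs, at 81.3, 78.3 and 101.0. The 2-cell-like markers had medians of 40.1, 37.3 and 24.6. Of 11 housekeeping genes compared, 0 passed, beside 0.705% of all genes higher and 0.157% lower. The housekeeping list's medians were -0.095 and -0.15.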

How the data were processed

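Total RNA, 1 culture per group, was read on Mouse Gene 2.0 ST arrays (Affymetrix), per the series' design text. The authors deposited 1 intensity per probe set and array. RMA is named in the submitters' processing notes and GeneSpring GX 11.5 in the design text. The values, on a linear scale from 18.9 upwards, were turned into log2 with no other change. Whether the authors added a constant before deposit is not stated, and one would shrink the differences of dim genes.

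Of 33793 probe sets, 23521 had 1 gene symbol, 1814 several and 8458 none listed; symbols were matched to RefSeq through Entrez identifiers for 23328. A gene was represented by its probe set with the highest mean (1082 of 22180 genes had several). The rule was tested on simulated data. With 1 array per group the number of arrays limits the precision, and no p-value or standard error was computed. Members and the 17 gene lists (347 of 376 entries matched) were chosen with earlier results of these data known. Values on all 3 arrays were to be given for Ddr2, Rhox5, Aard and Foxi3, the 20 members per direction with the largest difference nearer to 0, members on a list or of a listed gene's family, and the 3 genes on each side of the threshold. Alternatives were array centring, renewed quantile normalisation, a constant, a background floor, the intensity minimum, the probe set choice and the difference needed. Python 3.11.15, pandas 2.3.3 and matplotlib 3.10.9 were used.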

Additional observations from a re-analysis of the deposited data

Results flagged for a closer look

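Probe sets that carry no single gene symbol were outside the gene counts, and some showed the same pattern. By the same rule, 22 of them were higher in Activin+PD than on both other arrays and 1 was lower. Of the 22, 14 list several symbols, of 1131 such probe sets compared (1.24%), and 8 are not listed in the platform annotation, of 2755 compared (0.29%), beside 0.705% of genes. The probe set with the largest difference nearer to 0 lists several symbols, with 574 in Activin+PD, 45.8 in 2i and 35.3 in mEpiSCs, log2 differences of 3.65 and 4.03. Of those 14, 9 list a gene described above among their symbols, with an intensity of 221 to 436 in Activin+PD, 58.3 to 106 in 2i and 34.0 to 48.6 in mEpiSCs. No gene is named from them.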

How the results depend on the processing

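With both differences at least 1.5 in size, 29 genes were higher, 4 lower, 10 listed genes past the rule and 6 higher genes on X; with at least 0.8, 181 were higher and 38 lower. With 16 subtracted from each intensity, 150 genes were higher, all 99 among them. The other settings (centring, renewed quantile normalisation, background floor, no filter, a minimum of 100, mean over probe sets) gave 95 to 103 higher and 20 to 22 lower genes. No member changed direction under the 5 settings that change values. Averaging probe sets ended the call for Ccn2 (0.87), Gata3 (0.73), Map6 (0.73), Uchl1 (0.60), Dsg2 (-0.55) and Nkx1-2 (-0.56), as a second probe set with smaller differences entered the mean. The background floor ended it for Taf7l (0.68) and Plcl2 (-0.90), renewed quantile normalisation for Coro6, Ddx43, Gpat2, Mcam and Smpdl3b, and centring for Phlda2 and Tmem144. No paired analysis was possible because each group has 1 array and no test was made. Dim genes are limited by signal over background: 38 of the 99 higher genes were not above it on at least 1 other array.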
